A study of Mus musculus with 6 samples.

Results

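To describe chemokine receptor expression in microglia with and without PGC-1α overexpression, 8 genes were followed on 6 arrays: the fractalkine receptor Cx3cr1, its ligand Cx3cl1, the chemokine receptors Ccr1, Ccr2, Ccr7, Cxcr3 and Cxcr4, and the atypical receptor Ccrl2. They were taken as a named set, without a threshold on their values, and carried 11 of the 56605 probes on the array. Of the 11 probes, 9 were bright enough to test, among 25257 tested probes in all. Microglia came from mice labelled male and aged 10 weeks, on a C57BL/6 background, with 3 arrays per group. PGC-1αf/f mice carry a silent, loxP-flanked PGC-1α transgene together with eGFP. In mPGC-1α mice the same transgene is combined with a Cx3cr1 cre/ERT2 knock-in allele, so that tamoxifen, given on consecutive days several weeks before the experiments, switches it on in cells that use the Cx3cr1 locus. The controls were PGC-1αf/f littermates, and the labels name no ischaemia in either group. Brain cells were freed of myelin on a Percoll gradient and taken up by magnetic beads through the surface receptor P2RY12.

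Chemokines are small secreted proteins that attract leukocytes by acting on receptors with a bundle of membrane-spanning helices, coupled to inhibitory G proteins. Cx3cr1 is a defining receptor of microglia, and its ligand Cx3cl1, made mainly by neurons and anchored in the membrane until proteases release it, holds microglia in a resting state. Ccr2 serves the exit of classical monocytes from bone marrow and their entry into inflamed tissue, Ccr1 is found on monocytes and neutrophils, Ccr7 guides dendritic cells and T cells to lymph nodes, Cxcr3 marks activated T and NK cells, and Cxcr4 retains leukocytes in marrow. Ccrl2 binds chemerin without signalling through G proteins and is induced in activated macrophages.

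The Cre insertion lies in Cx3cr1 itself and was present in 1 group only. For that gene the allele and PGC-1α overexpression therefore cannot be told apart by design, and neither the number of insertion-bearing copies nor the position of the probes relative to the insertion is given in the sources used here. The sequence before and at the start of Cx3cr1, which drives both the receptor and the recombinase, is shown first below, followed by that of its ligand, of Ccrl2, which was higher on every mPGC-1α array, and of Cxcr4, which had the largest mean difference of the 9 tested probes. Each is 300 bases long, from 250 before to 50 after the annotated start, read 5′ to 3′ on the gene's strand from RefSeq (GRCm38.p6). Capitals mark matches to 7 short motifs searched on both strands.
Cx3cr1 (chr9:120068247-120068546, minus strand): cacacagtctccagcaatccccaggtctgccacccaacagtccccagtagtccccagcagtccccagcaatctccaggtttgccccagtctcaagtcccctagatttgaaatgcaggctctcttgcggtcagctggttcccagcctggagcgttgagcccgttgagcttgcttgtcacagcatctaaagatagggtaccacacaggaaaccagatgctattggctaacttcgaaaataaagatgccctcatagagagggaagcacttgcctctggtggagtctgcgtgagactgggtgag
Cx3cl1 (chr8:94771930-94772229, plus strand): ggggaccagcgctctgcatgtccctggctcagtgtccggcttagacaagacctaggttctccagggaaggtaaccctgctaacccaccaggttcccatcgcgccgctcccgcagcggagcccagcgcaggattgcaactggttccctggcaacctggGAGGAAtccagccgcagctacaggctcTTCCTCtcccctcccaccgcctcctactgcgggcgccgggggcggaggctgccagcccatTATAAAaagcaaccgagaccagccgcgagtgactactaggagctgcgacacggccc
Ccrl2 (chr9:111057469-111057768, minus strand): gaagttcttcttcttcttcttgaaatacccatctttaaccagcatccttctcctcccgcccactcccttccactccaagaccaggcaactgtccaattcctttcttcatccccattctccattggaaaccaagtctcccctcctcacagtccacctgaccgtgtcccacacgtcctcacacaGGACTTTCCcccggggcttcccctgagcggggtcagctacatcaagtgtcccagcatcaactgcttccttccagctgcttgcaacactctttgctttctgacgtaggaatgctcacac
Cxcr4 (chr1:128592250-128592549, minus strand): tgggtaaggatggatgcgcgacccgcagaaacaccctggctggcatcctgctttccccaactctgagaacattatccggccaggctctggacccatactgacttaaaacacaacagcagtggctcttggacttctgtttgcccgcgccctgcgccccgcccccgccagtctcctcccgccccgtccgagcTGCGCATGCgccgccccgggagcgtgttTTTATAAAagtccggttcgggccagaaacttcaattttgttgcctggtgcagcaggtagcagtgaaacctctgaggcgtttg
The motifs were AP-1 (TGANTCA), ERR (AAGGTCA), PU.1 (GAGGAA), NF-kB (GGNNTTTCC), ISRE (GAAANNGAA), NRF1 (TGCGCATGC) and the TATA box (TATAAA). The last 2 were added after the sequences had been read. The Cx3cr1 window held none of the 7. Cx3cl1 held PU.1 matches on both strands, at positions -93 to -88 and -66 to -61 from the start, and a TATA box at -6 to -1. A PU.1 match was also found in Ccr1 and in Cxcr3, and PU.1 is matched in 28.28% of all 32851 promoter windows of this length. Cxcr4 held an NRF1 match at -60 to -52, a motif present in 1.519% of all windows, next to 2 overlapping TATA box matches between -32 and -25, a motif present in 13.62%. The Ccrl2 start shown held an NF-kB match at -68 to -60, a motif found in 5.823% of windows, while the other 2 of its 3 annotated windows held none of the 7 motifs, and Ccr2 held an ISRE match, found in 8.56%. AP-1 and ERR, present in 7.808% and 4.718% of windows, were matched in none of the 9 windows of these genes. A match describes the letters of the window and not a bound site.

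Levels are given on a log2 scale relative to the 75th percentile of all spots of an array, so that a difference of 1 is a doubling and levels of different probes cannot be set against each other. Some arrays stood apart before any comparison. The mean correlation of PGC-1αf/f replicate 3 with the other arrays was 0.928, against 0.962 to 0.972 for the rest. Its summed signal, in multiples of the array's 75th percentile, was 5.11 for 7 monocyte markers, 13.5 for 7 neutrophil markers and 1.76 for 10 T and NK cell markers, against 26.6 to 41.6, 93.6 to 130.7 and 4.22 to 10.1 on the other 5 arrays. mPGC-1α replicate 3 had 0 of 4 Y-linked genes well above background although labelled male, and the other 5 arrays had all 4. Xist, expressed from the inactive X chromosome of females, was well above background on that array, at 0.323 in the same multiples, and also on PGC-1αf/f replicate 2 (0.146) and mPGC-1α replicate 2 (0.190), the 2 arrays with the next lowest summed Y-linked signal, 1.201 and 1.186 against 1.92 to 2.87 on the other 3. The groups also lay in separate rows of the slide, so slide row and genotype cannot be told apart. As for the label, P2ry12 and Tmem119, which define microglia, were well above background on every array and differed by -0.31 (SE 0.21, n = 5 arrays) and -0.02 (SE 0.20, n = 4 arrays), with limma adjusted p of 0.478 and 0.9748. The 2 Ppargc1a probes differed by 0.80 (SE 0.35) and 0.59 (SE 0.38), with limma adjusted p of 0.306 and 0.445. The microglial markers Csf1r, Olfml3, P2ry13 and Siglech, measured on all 6 arrays, were lower on average, as were 6 others with missing values, and 0 of the 10 passed the threshold. The first 4 had a median of -0.12 and a summed signal of 54.0 to 63.3 in PGC-1αf/f and 48.9 to 56.7 in mPGC-1α microglia. That median was between -0.26 and -0.16 under 4 other scalings, and all 10 had a median of -0.24.

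None of the 9 tested probes passed an adjusted p of 0.05 (limma, Benjamini-Hochberg over all 25257 probes), where 20 probes, or 0.0792%, did. Their adjusted p ranged from 0.181 to 0.571. At an unadjusted p under 0.05, Ccrl2 and Ccr7 were higher in mPGC-1α microglia and both Cx3cr1 probes were lower. Ccr7 was well above background on 1 of 3 control and 3 of 3 mPGC-1α arrays. It entered the test through the group in which it was higher, so it is counted here as a description. The background at that level was 7.53% of probes higher and 9.21% lower. The same 4 probes had groups that did not overlap, where 11.4% of probes with a value on every array lay higher and 13.7% lower without overlap, although Cx3cr1 A_52_P99810 had values on 4 arrays only. In all, 6 of the 9 means were higher and 3 lower, with a median difference of 0.55 against -0.0026 over all tested probes. Without PGC-1αf/f replicate 3, the array that stood apart, 5 were higher and 4 lower, with a median of 0.17 against 0.0017. The bulk RNA does not tell fewer cells of a type from less RNA per cell.

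**Figure D1:**
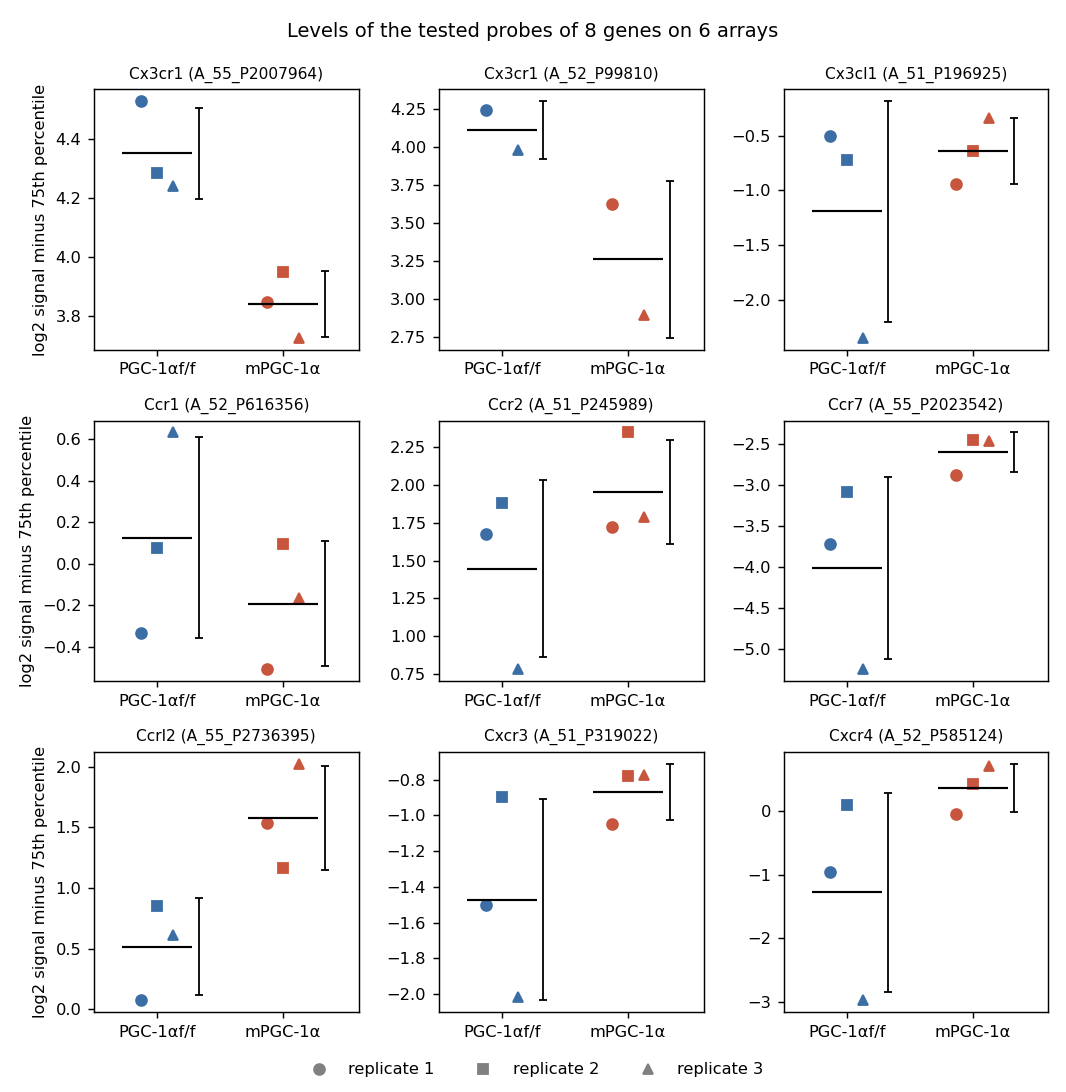
Level of each tested probe (log2 relative to the array's 75th percentile, vertical axes differ) in PGC-1αf/f (blue) and mPGC-1α (red) microglia, with a symbol per replicate, the group mean as a line and the SD as a bar (n = 3, or 2 for Cx3cr1 A_52_P99810). The Cx3cr1, Ccr7 and Ccrl2 groups do not overlap, and PGC-1αf/f replicate 3 is the lowest array for Cx3cl1, Ccr2, Ccr7, Cxcr3 and Cxcr4.

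Cx3cr1 was lower on all mPGC-1α arrays. Probe A_55_P2007964 gave levels of 4.53, 4.28 and 4.24 in PGC-1αf/f and of 3.85, 3.95 and 3.73 in mPGC-1α microglia. The highest mPGC-1α array lay below the lowest PGC-1αf/f array. The means were 4.35 ± 0.15 (SD, n = 3) and 3.84 ± 0.11 (SD, n = 3), a difference of -0.51 on the log2 scale (SE 0.14, 95% interval -0.85 to -0.17), or 0.702-fold. The limma p was 0.009 before and 0.194 after adjustment, and the exact two-sided permutation test gave 0.1, the smallest p that 3 arrays against 3 allow. The scanner had called spots of the other Cx3cr1 probe, A_52_P99810, outliers on both number 2 arrays, where its value was dropped. It read 4.24 and 3.98 in PGC-1αf/f and 3.62 and 2.89 in mPGC-1α microglia, a difference of -0.85 (SE 0.30) with an adjusted p of 0.275. It was -0.49 without mPGC-1α replicate 3 and -1.22 without mPGC-1α replicate 1. With the outlier spots kept, the values were 4.24, 4.03 and 3.98 against 3.62, 3.54 and 2.89, and the groups again did not overlap. Both probes therefore lay lower on every measured mPGC-1α array.

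The difference at A_55_P2007964 was present on either part of the slide where the groups could be matched. It was -0.68 between the arrays of slide column 1 and -0.33 between those of column 2. Without PGC-1αf/f replicate 3 it was -0.57, and without mPGC-1α replicate 3 it was -0.45. The level of Cx3cr1 minus the mean level of the 4 microglial markers, which can be compared between arrays but not between genes, was 0.90, 0.74 and 0.76 in PGC-1αf/f and 0.42, 0.68 and 0.27 in mPGC-1α microglia. These groups did not overlap either, with a difference of -0.34 and an exact two-sided permutation p of 0.1. Relative to microglial markers, Cx3cr1 was thus still the lower on each mPGC-1α array.

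The genes beside Cx3cr1 on chromosome 9 did not share one direction. On the side listed before it in the RefSeq order, Csrnp1, Gorasp1 and Wdr48 differed by -0.25, -0.26 and 0.06. On the other side, Slc25a38, a mitochondrial carrier, Rpsa, a ribosomal protein, and Mobp, a myelin protein, differed by 0.13, 0.25 and -0.54. Their adjusted p ranged from 0.397 (Rpsa) to 0.876 (Wdr48), and 0 of 6 passed the threshold. Of these neighbours, only Rpsa had groups that did not overlap, lying higher in mPGC-1α microglia.

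The ligand Cx3cl1 (A_51_P196925) gave -0.50, -0.72 and -2.34 in PGC-1αf/f and -0.94, -0.64 and -0.34 in mPGC-1α microglia. One control array, replicate 3, lay far below the other 5, whose values overlapped between groups. The mean difference was 0.55 (SE 0.47, adjusted p 0.568), and it turned to -0.025 without that array. Neurons are the main source of Cx3cl1 in brain, and of 6 neuronal markers 4 were bright enough to test. Their median difference was 0.18, with 0 past the threshold. The median was 0.03 without PGC-1αf/f replicate 3 and 0.01 to 0.14 under 4 other scalings. Snap25 turned lower with quantile normalization, a median shift and normexp. The summed signal was 10.4 to 13.4 in PGC-1αf/f and 12.5 to 14.1 in mPGC-1α microglia, and Slc17a7 was well above background on no array. The part of neuronal content in the Cx3cl1 values was not tested. Of the enzymes that cut Cx3cl1 or other membrane proteins from the cell surface, Adam10 differed by -0.09 and Adam17 by -0.32. The cathepsin Ctss differed by 0.01, and by less than 0 under 4 other scalings. None of these 3 passed the threshold.

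Ccrl2 had the smallest adjusted p of the 8 genes. Its levels were 0.07, 0.86 and 0.62 in PGC-1αf/f and 1.54, 1.17 and 2.02 in mPGC-1α microglia. Every mPGC-1α array lay above every PGC-1αf/f array. The means of 0.52 ± 0.40 (SD, n = 3) and 1.58 ± 0.43 (SD, n = 3) differed by 1.06 (SE 0.28, 95% interval 0.39 to 1.73), or 2.09-fold. The limma p was 0.007 before and 0.181 after adjustment, and the exact two-sided permutation p was 0.1. The difference was 1.46 within slide column 1 and 0.31 within column 2, 1.11 without PGC-1αf/f replicate 3 and 0.84 without mPGC-1α replicate 3. Across the 6 arrays the levels of Ccrl2 and Cx3cr1 ran opposite to each other (Pearson r = -0.97, n = 6 arrays that share the group split and the scaling, given as a description).

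**Figure D2:**
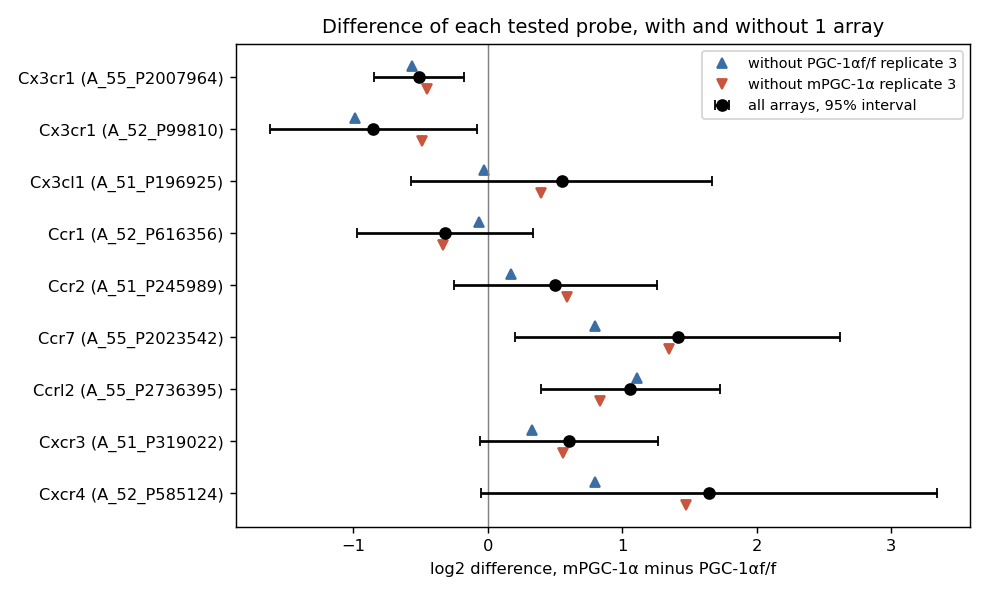
Mean log2 difference, mPGC-1α minus PGC-1αf/f, of each tested probe with its 95% interval (black), and the same difference without PGC-1αf/f replicate 3 (blue, upward) or without mPGC-1α replicate 3 (red, downward). The Cx3cr1 and Ccrl2 differences keep their side of 0, the Cxcr4 difference falls from 1.65 to 0.80 without PGC-1αf/f replicate 3, and that of Cx3cl1 goes to -0.025.

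Cxcr4 had the largest mean difference of the 9 tested probes over all 6 arrays, but not without PGC-1αf/f replicate 3, where Ccrl2 and Ccr7 lay above it. Probe A_52_P585124 gave -0.96, 0.10 and -2.98 in PGC-1αf/f and -0.04, 0.43 and 0.72 in mPGC-1α microglia. The control arrays spread over 3 units, and the highest of them lay above the lowest mPGC-1α array. The difference was 1.65 (SE 0.72, 95% interval -0.05 to 3.34), or 3.13-fold, with an adjusted p of 0.307. It was 0.80 without PGC-1αf/f replicate 3, 0.92 within slide column 1 and 0.32 within column 2. A second Cxcr4 probe, A_55_P2745744, was well above background on 1 array, mPGC-1α replicate 2, and was not tested.

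Ccr7 was dim. Probe A_55_P2023542 gave -3.73, -3.09 and -5.25 in PGC-1αf/f and -2.88, -2.46 and -2.47 in mPGC-1α microglia. It was well above background on 1 of 3 control arrays and on 3 of 3 mPGC-1α arrays, so that it entered the test through the group in which it was higher. The groups did not overlap, with a difference of 1.41 (SE 0.51, adjusted p 0.257) that fell to 0.80 without PGC-1αf/f replicate 3. A second probe, A_51_P420229, was well above background on mPGC-1α replicates 2 and 3 alone and was not tested. Its measured values were -4.70, -4.21 and -6.43 against -3.49, -3.54 and -2.997, again without overlap.

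Cxcr3 (A_51_P319022) gave -1.50, -0.90 and -2.02 in PGC-1αf/f and -1.05, -0.78 and -0.77 in mPGC-1α microglia. PGC-1αf/f replicate 2 lay within the mPGC-1α range. The difference was 0.61 (SE 0.28, adjusted p 0.328), and 0.33 without PGC-1αf/f replicate 3. Ccr2 (A_51_P245989) gave 1.68, 1.88 and 0.78 in PGC-1αf/f and 1.72, 2.35 and 1.79 in mPGC-1α microglia. With the exception of PGC-1αf/f replicate 3, the control values reached into the mPGC-1α range or just below it. The difference was 0.50 (SE 0.32, 95% interval -0.25 to 1.26, adjusted p 0.441), and 0.17 without that array. Ccr1 (A_52_P616356) ran the other way, with -0.33, 0.07 and 0.63 in PGC-1αf/f and -0.51, 0.09 and -0.16 in mPGC-1α microglia. Its groups overlapped, PGC-1αf/f replicate 3 was the highest array, and the difference of -0.32 (SE 0.28, adjusted p 0.571) became -0.064 without it.

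The levels of Cxcr4, Ccr7 and Cxcr3 followed each other from array to array. Pearson r was 0.99 for Cxcr4 with Ccr7, 0.98 for Cxcr4 with Cxcr3 and 0.98 for Cxcr3 with Ccr7 over 6 arrays. These are descriptions over arrays that share the group split, the slide and 1 array far from the rest. All 3 also followed the mean of 6 tested monocyte markers (Chil3, F13a1, Fn1, Ly6c2, Plac8 and Vcan), with r of 0.96 for Cxcr4, 0.97 for Ccr7 and 0.92 for Cxcr3, and of 0.82, 0.93 and 0.86 over the 5 arrays left without PGC-1αf/f replicate 3. With the mean of 7 neutrophil markers, r was 0.96, 0.94 and 0.90 for Cxcr4, Ccr7 and Cxcr3 over 6 arrays and 0.99, 0.95 and 0.99 over 5. With 9 T and NK cell markers it was 0.98, 0.95 and 0.96 over 6 arrays and 0.92, 0.78 and 0.87 over 5. For Ccr2 with the monocyte markers r was 0.94 with PGC-1αf/f replicate 3 and 0.80 without it, for Cx3cl1 it was 0.92 and -0.16, and for Ccr1 -0.73 and 0.45. For Ccrl2, r with and without that array was 0.44 and 0.66 for the monocyte, 0.41 and 0.85 for the neutrophil and 0.61 and 0.75 for the T and NK cell markers. For Cx3cr1 it was negative in each case, at -0.40 and -0.75, -0.34 and -0.82, and -0.51 and -0.65 for the same 3 lists. For Ccr2 it was 0.90 and 0.51 with the neutrophil and 0.84 and 0.29 with the T and NK cell markers.

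**Figure D3:**
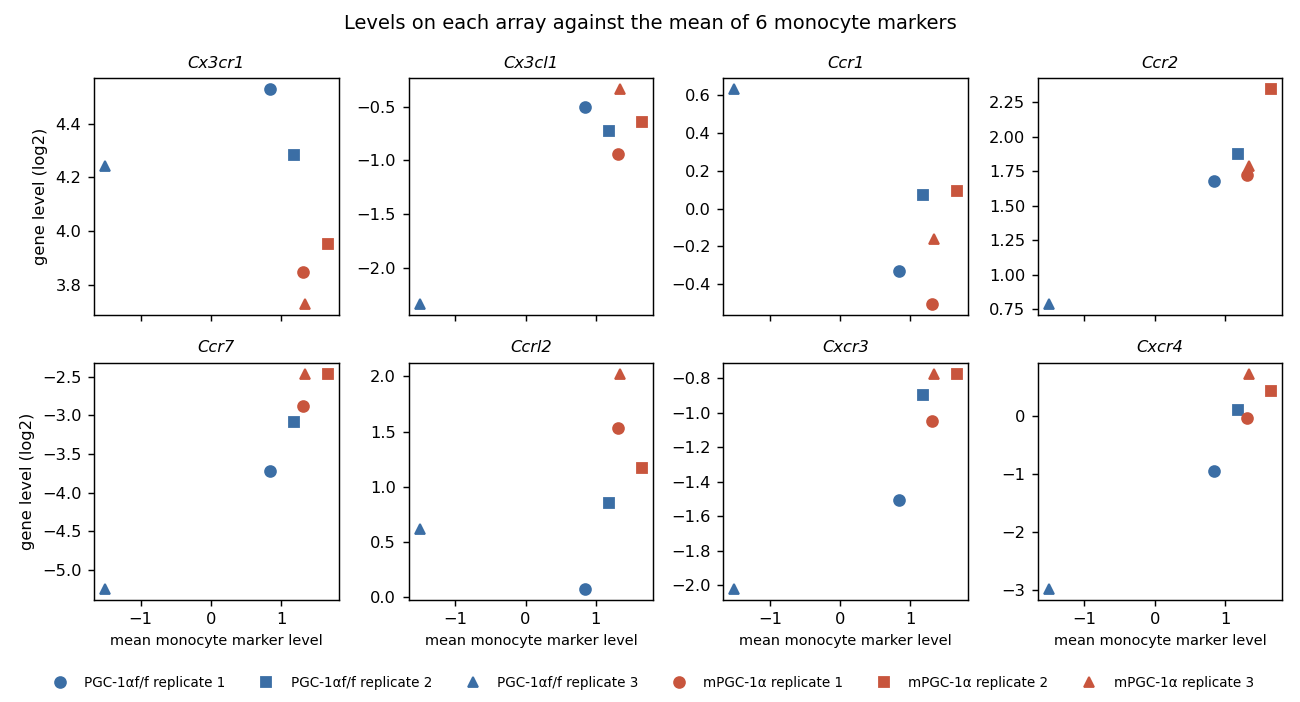
Level of each gene (vertical, log2 relative to the array's 75th percentile) against the mean level of 6 monocyte markers on the same array (horizontal, same scale), with PGC-1αf/f arrays in blue and mPGC-1α arrays in red. PGC-1αf/f replicate 3 lies far to the left at -1.51, and the other 5 arrays lie between 0.84 and 1.66.

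Monocyte, neutrophil and T and NK cell markers had higher means in mPGC-1α microglia, and their medians shrank without PGC-1αf/f replicate 3. The 6 tested monocyte markers all had higher means, with 0 past the threshold and a median difference of 1.25, which was 0.38 without that array. The 7 neutrophil markers measured on all 6 arrays, also all higher with 0 past the threshold, had a median of 1.55 and 0.33. Fn1 and Mmp9 were well above background on 2 of 3 control arrays and on all 3 mPGC-1α arrays, so both entered the test through the mPGC-1α group. An eighth neutrophil marker, Ly6g, had a value on 1 control array only, replicate 3, and no difference is given for it. The 9 tested T and NK cell markers had a median of 0.93 and 0.35, again with 0 past the threshold. The NK cell marker Klrb1c had no array on which it was well above background. Of the dendritic cell markers, 4 could be tested, 1 with a higher and 3 with a lower mean and 0 past the threshold, with a median of -0.17, and Clec9a and Zbtb46 were well above background on no array. Fscn1, the lowest, differed by -0.89 without overlap (adjusted p 0.178). Cd79b, from the B cell list, was well above background on every array and differed by -0.30 (adjusted p 0.449). Ms4a1 was well above background on 2 of 3 mPGC-1α arrays and 0 of 3 control arrays and was not tested. Pax5, Cd79a and Blk were well above background on no array, so the Cd79b difference is not read as one in B cell content. The 6 oligodendrocyte markers all had lower means in mPGC-1α microglia, 4 of them without overlap, where 1326 of 12300 named genes lay lower in that way, and 0 past the threshold, with a median of -0.58, which was -0.42 without PGC-1αf/f replicate 3. Mog, one of the 6, was well above background on 0 of 3 mPGC-1α arrays and entered the test through the controls. The 5 border macrophage markers measured on all 6 arrays all had higher means, with 0 past the threshold and a median of 0.38. The median was 0.32 without PGC-1αf/f replicate 3 and 0.09 without mPGC-1α replicate 3. Pf4 among them turned lower with a median shift and with normexp and quantile normalization. The 3 endothelial markers that could be tested, of 6, were also higher with 0 past the threshold, with a median of 0.78, which was 0.06 without PGC-1αf/f replicate 3 and 0.44 without mPGC-1α replicate 3, and Tek was well above background on no array. The untested Pecam1 was lower without overlap, with mean levels of -3.37 in controls, where it was well above background on 2 of 3 arrays, and -4.18 in mPGC-1α microglia, where it was so on 0 of 3, and Cdh5, also untested, was so on 1 mPGC-1α array. The summed level, in units of each array's 75th percentile, ran from 14.0 to 16.7 in controls and from 9.13 to 11.8 in mPGC-1α microglia for the oligodendrocyte markers, from 6.71 to 8.57 and from 7.64 to 12.6 for the border macrophage markers, and from 0.698 to 1.84 and from 1.103 to 2.59 for the endothelial markers. Relative to the 6 monocyte markers, Cxcr4 differed by 0.38, Ccr7 by 0.15, Ccrl2 by -0.20 and Cxcr3 by -0.66. These 4 had groups that overlapped, with exact two-sided permutation p between 0.2 and 0.9 for Cxcr4, Ccrl2 and Cxcr3. No p is given for Ccr7, whose probe entered the test through the mPGC-1α group. The Ccrl2 and Cxcr3 differences rested on PGC-1αf/f replicate 3. Ccrl2 was at -0.77, -0.33 and 2.12 in PGC-1αf/f and at 0.22, -0.49 and 0.68 in mPGC-1α microglia. Cxcr3 was at -2.35, -2.08 and -0.51 against -2.36, -2.44 and -2.12. Ccr2 differed by -0.76 relative to the monocyte markers. It was at 0.837, 0.693 and 2.291 in PGC-1αf/f and at 0.410, 0.686 and 0.444 in mPGC-1α microglia. The groups were apart only by 0.693 against 0.686 on the number 2 arrays, and PGC-1αf/f replicate 3 lay far above the rest. Fn1 is among these markers and entered the test through the mPGC-1α group, so the Ccr2 difference is given as a description. Relative to the 9 T and NK cell markers, Cxcr4 differed by 0.81 without overlap (exact permutation p of 0.1) and Ccr7 by 0.58, which is given as a description because its probe entered the test through the mPGC-1α group, while Ccr2 at -0.33, Ccrl2 at 0.22 and Cxcr3 at -0.23 overlapped. Relative to the 7 neutrophil markers, all 5 overlapped (exact permutation p between 0.4 and 1, with that of Ccr7 left out for the same reason). Cxcr4 was at 0.08, Ccr7 at -0.16, Ccrl2 at -0.51, Cxcr3 at -0.97 and Ccr2 at -1.07. All 5 were highest on PGC-1αf/f replicate 3, Ccrl2 at 1.05 against -3.09 and -2.76 on the other control arrays. The mPGC-1α values of Ccrl2 were -2.02, -2.55 and -1.76. Ccrl2, Cxcr3 and Ccr2 were also highest on PGC-1αf/f replicate 3 relative to the monocyte and the T and NK cell markers. Relative to the 4 microglial markers, Ccrl2 differed by 1.23 without overlap (exact permutation p of 0.1). Ccr7 differed by 1.59, as a description, and the other genes but Cx3cr1 overlapped. Cx3cr1 differed by -1.77, -2.08 and -1.35 relative to the monocyte, neutrophil and T and NK cell markers, without overlap. Ccr1 differed by -1.58, -1.89 and -1.16, the last with overlap. For both, PGC-1αf/f replicate 3 was the highest array each time. Over the 32 comparisons of a gene with the mean of a marker list, the smallest adjusted p by the exact permutation test was 0.291. The part that leukocyte, oligodendrocyte, border macrophage or endothelial content has in the receptor differences was not tested.

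The rest of the pathway was read from 5 lists. A list's counts and median are over tested genes with a value on all 6 arrays, and tested genes with a missing value are named beside them. Of 11 other typical chemokine receptors, 5 were such genes, and 0 passed the threshold. Cxcr2 and Ccr9 were well above background on 2 of 3 control arrays, so that they entered the test through the mPGC-1α group, and Ccr3 was so on 2 of 3 mPGC-1α arrays and entered through the controls. The receptor Cxcr2, which draws neutrophils, differed by 2.25 (SE 1.33), with -1.26, -0.59 and -6.07 in PGC-1αf/f and -0.84, -0.27 and -0.06 in mPGC-1α microglia. PGC-1αf/f replicate 3 lay far below the other 5 arrays, which overlapped between groups. Ccr9, a receptor of gut-homing T cells, differed by 1.39 (SE 0.27, adjusted p 0.121), with -3.17, -3.24 and -3.56 against -2.42, -2.001 and -1.38 and no overlap. The eosinophil receptor Ccr3 was lower, at -1.64, -1.85 and -0.93 against -3.59, -2.49 and -2.48, a difference of -1.38 (SE 0.37, adjusted p 0.181) without overlap. Cxcr6 differed by 0.58 and Ccr6 by 0.87, the latter with 1 low control array at -1.05. Xcr1, Ccr4, Ccr8, Ccr10, Cxcr1 and Cxcr5 had none of the 6 arrays on which they were well above background. Of the atypical and chemerin receptors, Ackr1 differed by 0.78, Ackr3, which scavenges the Cxcr4 ligand, by 0.70, and the chemerin receptor Cmklr1 by 0.08, the last turning lower with a median shift, and 0 of 3 passed the threshold.

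The ligands of the receptors described here had higher means in mPGC-1α microglia for 13 of 14 tested genes. The exception, Ccl6, a ligand of Ccr1, had values on 5 arrays and differed by -0.19 (adjusted p 0.671). The 13 with a value on all 6 arrays had a median difference of 0.82 against 0.03 over 12300 tested named genes, of which 6649 had a higher mean. None of the ligands passed the threshold, and Ccl9 turned lower with a median shift, with quantile normalization and in the deposited table without scaling. At an unadjusted p under 0.05, 6 of the 13 were higher and 0 lower, where 8.16% of named genes were higher and 5.72% lower. Ccl7 and Ccl21a were well above background on 2 of 3 control arrays and entered the test through the mPGC-1α group. Ccl21a is among the 6 counted as higher, a direction that the filter favours for it. Ccl2, the main ligand of Ccr2, gave -0.05, 1.68 and 0.16 in PGC-1αf/f and 1.67, 2.19 and 2.16 in mPGC-1α microglia, a difference of 1.41 (SE 0.45, adjusted p 0.226) with a narrow overlap. Cxcl10, a ligand of Cxcr3, gave -1.78, 0.05 and -0.88 against 0.21, 0.53 and 0.71, a difference of 1.35 (SE 0.43, adjusted p 0.227) without overlap. The lowest of the 13 were Ccl9, another ligand of Ccr1, at 0.02, and Rarres2, which encodes chemerin, at 0.32. The median of the 13 was 0.67 without PGC-1αf/f replicate 3. The immediate-early genes, which respond within minutes to stimuli that include cell isolation, also had higher means for 7 of 7 tested genes with a value on all 6 arrays, with 2 past the threshold and a median of 1.37. Fos had a value on 1 mPGC-1α array only, and no difference is given for it. The part of the immediate-early genes in the ligand differences was not tested.

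**Figure D4:**
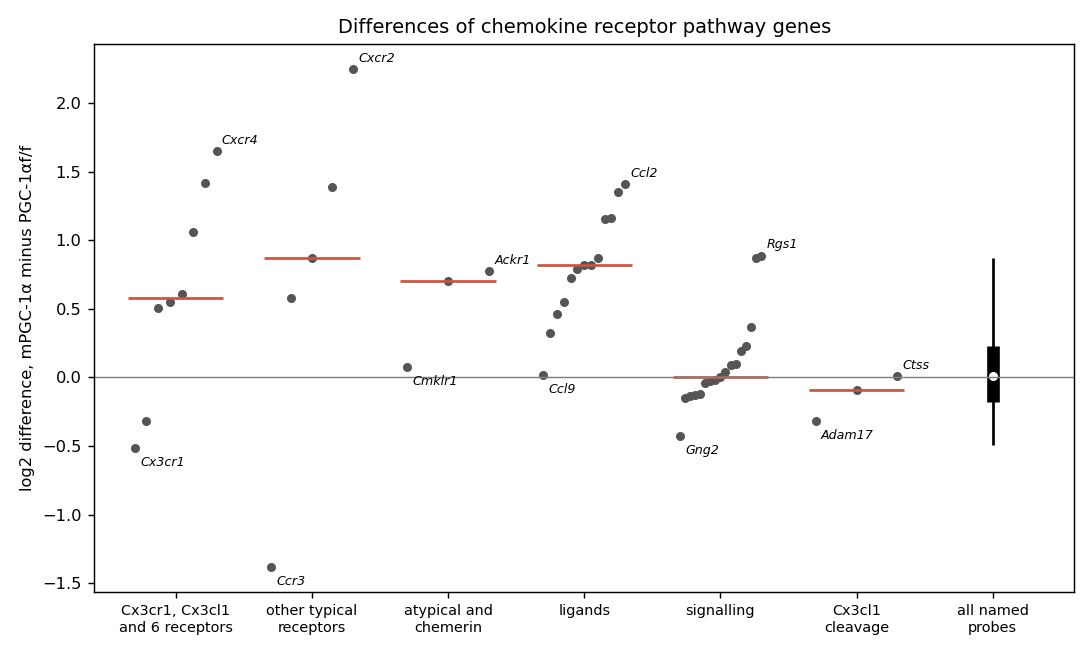
Mean log2 difference, mPGC-1α minus PGC-1αf/f, of every tested gene by its brightest probe with a value on all 6 arrays (points) in the 8 genes and 5 pathway lists, with the median as a red line and the lowest and highest gene named. The bar at the right spans the middle 50% and the line the middle 90% of 17838 named tested probes, whose median is 0.01, and the 13 ligands shown lie above 0, although Ccl9 turned lower under 3 other scalings and Ccl6, not shown for a missing value, was lower.

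The signalling list held 21 genes for G protein subunits, phospholipases, a PI3 kinase, receptor kinases, arrestins and RGS proteins. Of these, 19 were tested, with 9 means higher, 10 lower and 0 past the threshold. The 17 with a value on all 6 arrays had a median difference of 0.005. The receptor kinase Grk3 and the PI3 kinase subunit Pik3cg, each with values on 5 arrays, differed by -0.31 (adjusted p 0.477, without overlap) and -0.38 (adjusted p 0.441, with overlap). Under the 4 other scalings 5 to 8 of the 17 means were higher. Rgs1 and Rgs18, which speed the shut-off of G proteins, had the highest differences of the 17, 0.89 (SE 0.26, adjusted p 0.208, without overlap) and 0.87 (SE 0.42, adjusted p 0.345, with overlap), the latter well above background on 2 of 3 control arrays. The G protein subunits Gng2 and Gnai3 had the lowest of the 17, -0.43 and -0.15, both with overlap.

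Of 11558 genes with a named probe well above background on all 6 arrays, those whose array pattern was most like that of Cx3cr1 were Zfp46, Gm40091, Gm12185, Trpm7 and Hnrnph3, with Pearson r from 0.99 to 1.00 over 6 arrays. All 5 lay lower in mPGC-1α microglia without overlap, with differences from -0.74 (Gm12185) to -0.11 (Trpm7), and none passed the threshold. Cx3cr1 itself lay lower without overlap, so this split follows from how the 5 were chosen and is no separate result. Those most like Ccr2 were Vwa1, Rhof, Vcan, Prc1 and Phactr2, with r from 0.97 to 0.99, and all 5 had overlapping groups. Vcan is also 1 of the monocyte markers. With 6 arrays and this many genes, high values of r are common, and they are given as a description. The overlap of the genes most like Ccr2 likewise follows from the choice.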

How the data were processed

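Microglia were analysed on 6 arrays (3 PGC-1αf/f, 3 mPGC-1α), grouped by their labels. Per the labels, the authors amplified total RNA by a linear method, labelled it with Cy5 and hybridized it to 1-colour Agilent mouse arrays. The deposited scanner files give the background-subtracted intensity of each spot, and the deposited table of the series held the same intensity values to within 1 percent, without scaling between arrays. GeneSpring is named for normalization in the study's methods, which give no test per gene for the arrays. Because arrays give no counts, their number limits the precision. The signal at the 75th percentile was 1012 to 2138, 27025 to 30272 of 59305 spots were well above background and 0 were saturated. The sources used here do not say whether an array held cells of 1 mouse or of several, and p-values measure the spread between these arrays, which may be technical.

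Control spots and spots with an outlier flag were left out, log2 intensity was reduced by the 75th percentile of each array and spots of a probe were averaged. A probe counted as bright on an array if 0.5 or more of its spots carried the scanner's flag for being well above background, and was tested if this held on all arrays of a group. The fit was limma 3.58.1 (lmFit, eBayes, two-sided) in R 4.3.3 with the package data.table (version 1.17.8), checked on simulated data, with Benjamini-Hochberg adjustment over 25257 probes and a threshold of 0.05. Probes were named through their accession in a RefSeq list of GRCm38.p6, which gave 1 symbol for 33767 probes. The neighbours of Cx3cr1 were chosen by the RefSeq order on chromosome 9. Promoter windows were found for 7 of the 8 genes, Ccr7 being the other one. Python 3.11.15 with pandas 2.3.3, matplotlib 3.10.9 and numpy 2.4.6 drew the figures.

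The genes, pathway lists and marker lists were chosen with earlier results of these data known, and 3 genes were left out of the lists and are not reported here. Named were all 8 genes, and in each pathway list genes past the threshold, the 2 highest and the 2 lowest differences by the brightest probe with all values, the 5 genes most correlated with Cx3cr1 and with Ccr2, 3 neighbours of Cx3cr1 on either side, and P2ry12, Tmem119 and Ppargc1a. Other genes were named after their values were seen, where a list had few members. The alternatives changed the scaling (quantile, a shift of medians, normexp on the median spot signal with offset 50 before quantile, or the deposited table unscaled), the filter (none, or brightness on all 6 arrays), the fit (replicate number as a block, slide column as a random block, weighted arrays, a robust eBayes with trend), or the input (means over a gene's probes, outlier spots kept, arrays left out).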

Additional observations from a re-analysis of the deposited data

How the results depend on the processing

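Under 19 alternatives, Cx3cr1 (A_55_P2007964) kept its direction in all 19, from -0.64 to -0.42, as did Ccrl2, from 0.65 to 1.26, and neither passed the threshold in any. Cxcr4 kept its direction, from 0.61 to 2.34, and passed in 1, the deposited table without scaling (1.61, limma adjusted p 0.0125), which made the count of the 9 probes past the threshold 1 there and 0 in all others. Cx3cl1 turned to -0.0252 without PGC-1αf/f replicate 3 and to -0.177 without both number 3 arrays, with a range of -0.0252 to 0.894 when single arrays were left out. The count over all probes, 20, was 11 with a median shift, 11 with normexp and quantile normalization, 456 in the deposited table, 9 with no filter, 4 with a filter on all 6 arrays, 138 with slide column as a random block, 1100 with weighted arrays, 8 for gene means and 3 without both number 3 arrays. It ranged from 0 (without mPGC-1α replicate 3) to 25 (without PGC-1αf/f replicate 3) when single arrays were left out, with 2 without PGC-1αf/f replicate 2, 11 without mPGC-1α replicate 1 and 1 without mPGC-1α replicate 2. The cause was not tested. With the replicate number as a block it was 0 (limma; an unadjusted p under 0.05 was reached by 2388 probes upward and 2293 downward), and 0 of the 9 probes passed. Same-numbered arrays deviated together with correlations of 0.139, 0.127 and 0.019, and the numbers were not taken to pair them. The median shift moved the median of all probes to -0.14, and 54.5% of the probes past 2-fold at an unadjusted p under 0.05 were then higher, against 72.9%. Signal over background limits Ccr7 and the dim Cxcr4 probe.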
